A study of Mus musculus with 10 samples.

Results

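The regions described here lie between genes and far from any annotated start of transcription. Of the 108253 regions quantified in cultured mouse retina, 35496 were annotated as distal intergenic. Of these, 2841 lay more than 100 kb from the nearest transcription start site (TSS) given in the deposited table, which is 2.62% of all regions and 8.0% of the intergenic ones. The choice used position and annotation alone and no measured level. The regions are called members below.

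Chromatin between genes holds enhancers, stretches of DNA that bind transcription factors and act on promoters that can be far away along the chromosome. Acetylation of histone H3 at lysine 27 (H3K27Ac) marks active promoters and enhancers. Lactylation of histone H3 at lysine 18 (H3K18La) places a lactyl group, derived from the end product of glycolysis, on the same histone tail. Photoreceptors, the most numerous cells of the mouse retina, convert much of their glucose to lactate even when oxygen is present.

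Retinas came from wild-type C57BL/6J mice at postnatal day 28 and were kept as explants for 48 h in medium with 5 mM or 25 mM glucose. The pigment epithelium was removed before culture, and the neural retina was dissociated without sorting, with 500000 cells per assay, so the values mix its cell types. CUT&Tag, in which an antibody guides a transposase to cut and tag the chromatin beside a histone mark, was carried out for H3K18La in 3 libraries per glucose level and for H3K27Ac in 2 libraries per glucose level. The comparison asks whether glucose supply alters the marks. No genotype, drug or age differed between the groups, and the labels put every library in batch 1. The study's methods speak of biological replicates, but the labels do not say whether each library came from separate animals, so the p-values measure the spread between these libraries, which may be technical. An explant has lost its pigment epithelium and blood supply and is a model of the neural retina alone.

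Promoter peaks of retinal genes were marked, unevenly among cell types. All 8 photoreceptor genes examined had a promoter peak, and their summed H3K27Ac level ran from 45.5 to 79.1 RPKM (reads per kilobase of peak, scaled to library size) at 5 mM and from 221 to 404 at 25 mM. The rod genes made up most of it, and the cone genes Arr3 and Opn1sw averaged 2.65 and 0.926 RPKM over the H3K27Ac libraries. All 3 bipolar genes and all 3 Müller glia genes had a promoter peak, with summed H3K27Ac at 25 mM from 15.7 to 25.7 and from 20.9 to 27.3 RPKM. Of 4 amacrine and ganglion cell genes 2 had one, with 1.36 to 2.64 RPKM, while Tfap2b and Slc17a6 had none. None of the 6 genes of other organs (Alb, Myh6, Ins2, Cd3e, Krt5, Umod) had one. For the pigment epithelium, Rpe65 and Ttr had no promoter peak, and the summed H3K18La level of Best1 and Tyrp1 ran from 0.843 to 1.97 RPKM at 5 mM and from 3.79 to 5.12 at 25 mM, with H3K27Ac from 1.72 to 2.49 and from 3.33 to 4.11. Among microglial genes 1 of 3 had a promoter peak, with H3K18La from 0.528 to 1.66 RPKM at 5 mM and from 1.94 to 3.87 at 25 mM, with H3K27Ac from 0.332 to 1.04 and from 1.06 to 1.5. Summed H3K18La of the bipolar genes ran from 1.66 to 2.22 RPKM at 5 mM and from 1.8 to 2.33 at 25 mM, that of the Müller glia genes from 1.07 to 4.47 and from 4.15 to 8.97, and that of the photoreceptor genes from 10.9 to 14.4 and from 48.2 to 124. The part of these cell types in the changes below was not tested. In bulk tissue, fewer cells that carry a mark and less of the mark per cell cannot be told apart.

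Members were short and poor in CpG, though other intergenic peaks lay close to them. Their median width was 587 bp, from 213 to 3087 bp, and together they covered 1.95 Mb. The median was 652 bp at intergenic peaks 20 to 100 kb from a TSS, 704 bp within 20 kb and 757 bp over all peaks. The median GC content of members was 46.3%, against 48.0% and 49.1% in the nearer intergenic classes, 49.6% over all peaks and 57.5% at promoters. Members held a median of 6.96 CpG dinucleotides per kb. It was 9.24 and 10.6 in the nearer intergenic classes, 11.8 over all peaks and 49.0 at promoters. Interspersed or simple repeats made up more than 50% of the sequence in 501 members, which is 17.6%, against 9.89% of intergenic peaks 20 to 100 kb from a TSS, 8.14% of those within 20 kb and 0.747% of promoter peaks.

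The assigned TSS was seldom that of a coding gene. The median distance was 141969 bp, and the farthest member lay 580092 bp away. A total of 560 members lay beyond 200 kb and 88 beyond 300 kb. Of all members, 52.5% lay upstream of the assigned TSS. The assigned transcript was a processed pseudogene for 960 members, a lincRNA for 639 and a small nucleolar RNA for 152, and it was protein-coding for 345, or 12.1%. Measured to the nearest protein-coding TSS of GENCODE M21, the median distance was 292454 bp, and 194 members were more than 1 Mb from any coding start. The assigned gene names used below are therefore addresses and not targets.

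The sequences of 7 members follow, since later results turn on them. Each is the central 300 bases of the peak on the forward strand of GRCm38, read from the RefSeq assembly. The first 3 had large rises in H3K18La, the fourth had the largest rise in H3K27Ac by the rule used here, and the last 3 were among the strongest members. Capitals mark matches, on either strand, to 8 short motifs. These were CTAATCC for the CRX and OTX homeodomain factors, TGCTGAC for NRL and other MAF factors, CAGATG for the E-box of NEUROD factors, AAGGTCA for nuclear receptors such as ROR, and CTATTTTTA for MEF2. The others were GGGCGG for the GC box of SP and KLF factors, AGGGGGCGC for part of the CTCF site, and TGANTCA for AP-1.
Gm15387, chr15:74215147-74215446: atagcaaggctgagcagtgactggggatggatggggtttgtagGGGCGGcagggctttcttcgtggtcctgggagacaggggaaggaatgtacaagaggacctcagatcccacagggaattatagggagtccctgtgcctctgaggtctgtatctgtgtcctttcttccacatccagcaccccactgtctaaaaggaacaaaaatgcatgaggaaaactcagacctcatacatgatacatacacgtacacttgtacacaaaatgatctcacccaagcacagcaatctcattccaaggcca
Thrb, chr14:17431679-17431978: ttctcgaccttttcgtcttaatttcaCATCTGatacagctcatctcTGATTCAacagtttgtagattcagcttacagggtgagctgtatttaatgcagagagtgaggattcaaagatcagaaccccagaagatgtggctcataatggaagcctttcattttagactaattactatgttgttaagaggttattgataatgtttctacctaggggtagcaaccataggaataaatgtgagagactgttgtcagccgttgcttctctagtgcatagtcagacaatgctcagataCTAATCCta
Lpin1, chr12:16429050-16429349: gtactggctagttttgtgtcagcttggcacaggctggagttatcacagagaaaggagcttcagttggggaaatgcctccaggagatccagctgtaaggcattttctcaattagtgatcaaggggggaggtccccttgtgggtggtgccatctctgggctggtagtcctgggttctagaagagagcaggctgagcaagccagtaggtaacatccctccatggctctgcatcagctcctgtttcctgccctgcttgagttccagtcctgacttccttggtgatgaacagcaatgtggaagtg
Gm11835, chr4:10079734-10080033: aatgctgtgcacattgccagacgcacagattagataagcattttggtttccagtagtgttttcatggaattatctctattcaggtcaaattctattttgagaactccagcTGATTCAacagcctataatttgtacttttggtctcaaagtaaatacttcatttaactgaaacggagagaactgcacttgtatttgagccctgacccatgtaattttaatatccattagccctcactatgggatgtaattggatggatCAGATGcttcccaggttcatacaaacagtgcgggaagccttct
Gm25880, chr4:153694043-153694342: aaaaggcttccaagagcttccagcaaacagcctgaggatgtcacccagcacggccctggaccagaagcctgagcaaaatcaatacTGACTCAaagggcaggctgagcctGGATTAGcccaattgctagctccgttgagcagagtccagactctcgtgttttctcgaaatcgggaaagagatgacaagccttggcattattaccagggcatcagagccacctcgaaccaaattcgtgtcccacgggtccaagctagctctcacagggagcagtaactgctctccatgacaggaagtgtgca
Mir205hg, chr1:193625537-193625836: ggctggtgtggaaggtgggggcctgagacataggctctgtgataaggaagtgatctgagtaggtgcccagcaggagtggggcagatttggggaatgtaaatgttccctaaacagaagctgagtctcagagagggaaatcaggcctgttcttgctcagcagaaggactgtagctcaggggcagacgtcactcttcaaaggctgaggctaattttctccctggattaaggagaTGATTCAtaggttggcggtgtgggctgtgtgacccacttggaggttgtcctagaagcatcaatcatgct
Gm13481, chr2:48567907-48568206: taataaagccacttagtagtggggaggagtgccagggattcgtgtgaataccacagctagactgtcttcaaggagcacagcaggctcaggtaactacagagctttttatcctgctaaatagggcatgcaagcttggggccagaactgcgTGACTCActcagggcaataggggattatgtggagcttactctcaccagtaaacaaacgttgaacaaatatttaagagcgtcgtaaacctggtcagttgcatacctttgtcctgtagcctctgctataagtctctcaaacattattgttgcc

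The printed windows differed in composition. The window assigned to Thrb held a CRX and OTX match at its 3′ end, an E-box and an AP-1 match. The Gm25880 window held a CRX and OTX match and an AP-1 match. The Lpin1 window was annotated as repeat over its whole length and held none of the motifs. A match is a run of letters and no evidence of binding.

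Motif content set members apart from promoters more than from other intergenic peaks. The GC box occurred in 2.71% of member windows, in 4.53% of intergenic peaks 20 to 100 kb from a TSS and in 44.8% of promoter windows, against 11.8% of all peaks. The E-box occurred in 29.3% of members and 25.2% of all peaks. The CRX and OTX match occurred in 3.03% of members and 3.35% of all peaks, and the MAF match in 6.41% and 6.18%. The AP-1 match occurred in 9.47% of members and 8.55% of all peaks, the ROR match in 6.83% and 6.2%, and the MEF2 match in 0.81% and 0.486%. The CTCF letters were in 0 member windows and 0.388% of all windows.

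Reads at members were few. The values gave whole reads back, and the totals behind RPKM ran from 1358008 to 7424470 reads per library. Members received 2489 to 19921 reads per library, with a median of 0 to 2 reads for a single member. Between 22.4% and 58.8% of members had no read in a given library. At the median member width, 3 reads, the floor used here, correspond to 0.688 RPKM in the deepest library and 3.76 in the shallowest. Intervals and floors cover counting error only.

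Both marks were higher at members in 25 mM glucose when levels were taken per total reads. Pooled over all members, H3K18La was 0.921, 0.972 and 0.938 RPKM at 5 mM and 1.92, 2.19 and 2.23 RPKM at 25 mM. H3K27Ac was 0.797 and 1.00 RPKM at 5 mM and 1.42 and 1.33 RPKM at 25 mM. No library of 1 glucose level overlapped the other for either mark. The group means were 0.943 ± 0.0259 and 2.11 ± 0.171 RPKM for H3K18La (SD, n = 3), a ratio of 2.24. For H3K27Ac they were 0.898 ± 0.144 and 1.38 ± 0.0590 RPKM (SD, n = 2), a ratio of 1.53. As a share of total reads, members were 0.184% at 5 mM and 0.413% at 25 mM in H3K18La, and the exact two-sided permutation p was 0.1, the smallest that 3 against 3 libraries can give. In H3K27Ac the share was 0.176% at 5 mM and 0.269% at 25 mM, with an exact permutation p of 0.33, also the smallest for 2 against 2.

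Outside all peaks the level was lower at 25 mM. It was taken as the total behind RPKM minus the reads in peaks, so it falls whenever the share in peaks rises. It is therefore no separate observation. The off-peak level was 0.345 ± 0.00038 RPKM at 5 mM and 0.264 ± 0.00815 at 25 mM in the H3K18La libraries (SD, n = 3), and 0.289 ± 0.0288 and 0.145 ± 0.0360 in the H3K27Ac libraries (SD, n = 2). Members stood 2.73-fold over it at 5 mM and 7.98-fold at 25 mM for H3K18La, and 3.15-fold and 9.83-fold for H3K27Ac. The part of this shift in the per-peak changes was not tested beyond the scalings given below.

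**Figure D1:**
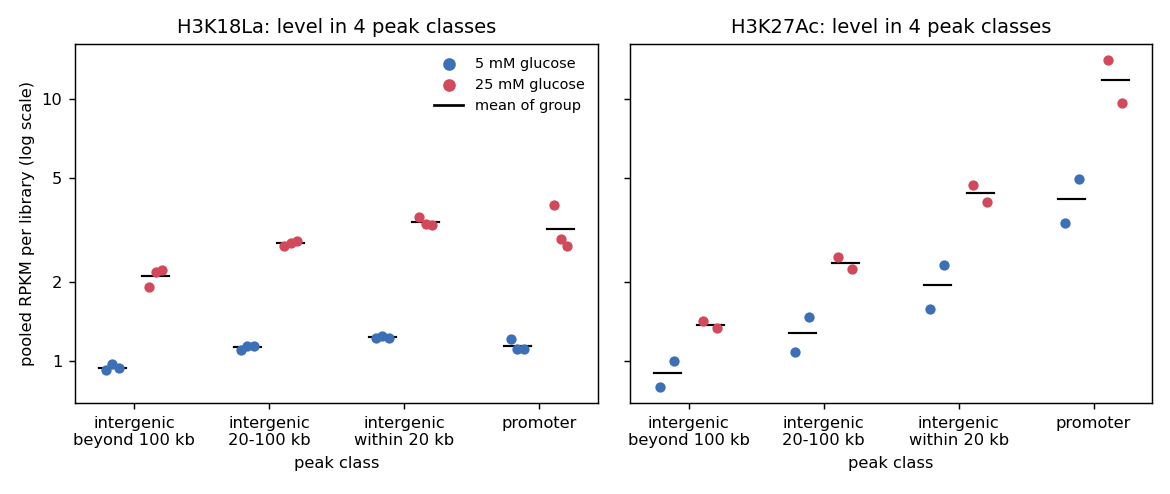
Level of each mark in 4 classes of peaks. Each point is 1 library, the y axis is the pooled RPKM of the class on a log scale, and black bars are group means. Members hold the lowest level of the 4 classes in both marks at 25 mM, and the 2 glucose levels do not overlap in any class.

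Members had less of both marks than nearer peaks, and the gap to promoters was wide only for acetylation. At 25 mM glucose H3K18La averaged 2.11 RPKM over members, 2.82 over intergenic peaks 20 to 100 kb from a TSS, 3.40 over those within 20 kb and 3.20 over promoters. H3K27Ac averaged 1.38, 2.36, 4.38 and 11.8 RPKM in the same order. H3K27Ac over H3K18La was thus 0.651 at members and 3.70 at promoters. At 5 mM the same ratio was 0.952 at members and 3.63 at promoters. The 2 marks come from different antibodies and libraries, so these ratios compare classes and do not measure the amount of either mark. The peaks were called for H3K18La in uncultured retina, and the part of that choice in the ratios was not tested.

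The ratio between glucose levels was smaller at members than in the other classes. The ratio of pooled levels, 25 mM over 5 mM, was 2.24 at members, 2.49 and 2.76 at the nearer intergenic classes and 2.80 at promoters for H3K18La. For H3K27Ac it was 1.53, 1.85, 2.24 and 2.85. The mean of log2(RPKM + 0.5) over members, minus that over each other class, was lower at 25 mM in all 6 contrasts. In H3K18La the contrast with intergenic peaks 20 to 100 kb away was -0.22 ± 0.03 at 5 mM and -0.46 ± 0.02 at 25 mM (SD, n = 3), and with promoters it was -0.43 ± 0.06 and -0.97 ± 0.26. In H3K27Ac these were -0.32 ± 0.07 and -0.50 ± 0.01, and -1.72 ± 0.23 and -2.68 ± 0.24 (SD, n = 2). Libraries did not overlap between glucose levels in any of the 6. The exact permutation p was 0.1 for each H3K18La contrast and 0.33 for each H3K27Ac contrast, the smallest possible, and after Benjamini-Hochberg adjustment over 12 such exact tests they were 0.171 and 0.33.

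As a share of the reads that fell in peaks, members were lower at high glucose and lower in H3K27Ac than in H3K18La. The H3K18La share was 1.5%, 1.6% and 1.55% in the 3 libraries at 5 mM and 1.07%, 1.36% and 1.40% at 25 mM. Replicate 1 at 25 mM was the lowest, with a 95% Wilson interval from 1.05% to 1.10%. The H3K27Ac share was 0.737% and 0.620% at 5 mM and 0.399% and 0.462% at 25 mM. Glucose levels did not overlap within a mark, and marks did not overlap within a glucose level. The difference with glucose was -0.274 percentage points for H3K18La (exact permutation p = 0.1) and -0.248 for H3K27Ac (exact permutation p = 0.33). With 1 library left out, the H3K18La difference ran from -0.172 without replicate 1 at 25 mM to -0.335 without replicate 3 at 25 mM. H3K27Ac lay 0.870 points below H3K18La at 5 mM and 0.845 points below at 25 mM, each with an exact permutation p of 0.1, which is the smallest for 3 against 2 libraries. All of these came to 0.171 or 0.33 after adjustment. Since the peaks were called for H3K18La, regions marked by H3K27Ac alone were not among them. The part of this choice in the gap between the marks was not tested.

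**Figure D2:**
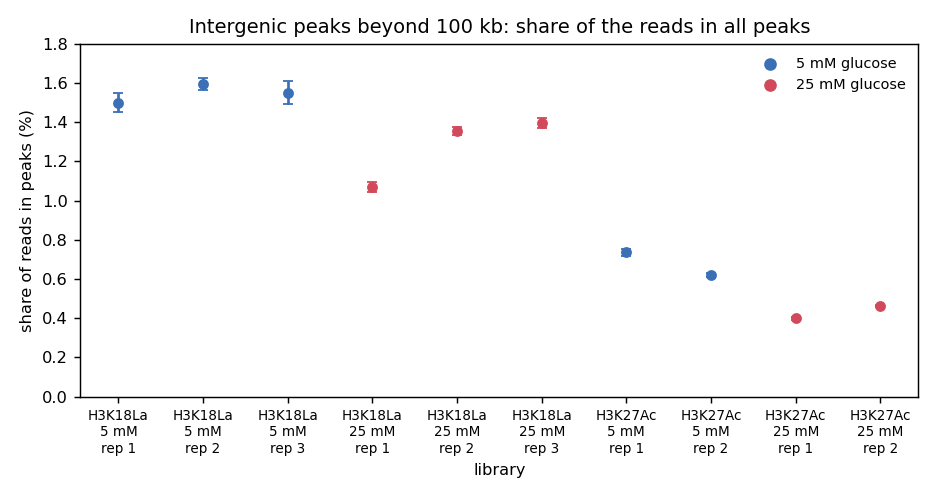
Members' share of all reads that fell in peaks, in percent, for each of the 10 libraries, with 95% Wilson intervals that cover counting error only. The 3 H3K18La libraries at 5 mM lie highest, from 1.5% to 1.6%, and the 2 H3K27Ac libraries at 25 mM lowest, at 0.399% and 0.462%.

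Peak by peak, fewer members than other peaks passed the test for a rise. Limma with intensity trend and robust moderation on log2(RPKM + 0.5), adjusted over all 108253 peaks, called H3K18La higher at 25 mM for 245 of 2841 members (8.62%), where 20.6% of all peaks were called. It called 14 members lower (0.493%), against 0.117% of all peaks. H3K27Ac was called higher at 71 members (2.5%), against 16.4% of all peaks, and lower at 13 (0.458%), against 0.179%. None of the members called lower in either mark averaged more than 3.5 reads per library, and the 14 of H3K18La averaged at most 1.33. The members called higher had a median of 11.8 reads per library in H3K18La and 15.5 in H3K27Ac. Of these, 37 were called higher in both marks, which is 15.1% of the H3K18La calls and 52.1% of the H3K27Ac calls. Over all peaks, 39.5% of the H3K18La calls and 49.6% of the H3K27Ac calls were shared in this way. The log2 scale with a pseudocount understates the change of weak members.

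Leaving out weak peaks changed this comparison for H3K18La. Among peaks with a mean of at least 1 RPKM over the 10 libraries, a filter that peaks can pass through their 25 mM libraries alone, 252 of 771 members were called higher (32.7%), close to the 33.1% of all such peaks. The members' median difference was then 0.03 below that of all peaks on the log2 scale, instead of 0.46 below. In H3K27Ac 108 of the 771 were called higher (14%), against 34.5% of all such peaks, and the median was 0.44 below, instead of 0.57. With the same filter the H3K18La contrast between glucose levels was -0.02 against promoters and -0.07 against intergenic peaks 20 to 100 kb away, instead of -0.54 and -0.24. The filter used the values it was compared on, so these shares and contrasts are a description, with no test.

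These counts depended on scale and on single libraries. The median log2 difference over all peaks was 0.76 in H3K18La and 0.58 in H3K27Ac, and over members it was 0.31 and 0.01. With each library centred on the median of all peaks, 43 members (1.51%) were called higher and 20 (0.704%) lower in H3K18La, against 4.8% and 0.221% of all peaks. In H3K27Ac 12 (0.422%) were called higher and 20 (0.704%) lower, against 4.75% and 0.366%, and the members' medians were -0.33 and -0.43. With libraries scaled to their reads in peaks, limma called 0 members and 0 of all peaks in either mark, 220 and 354 members had an unadjusted p under 0.05, and the members' medians were -0.22 and -0.49. Without replicate 2 or replicate 3 of H3K18La at 25 mM, 110 and 132 members were called higher, of 12086 and 14842 peaks called in all. Leaving out any 1 of the 4 H3K27Ac libraries left 0 calls among members and all peaks, with 55 to 296 members at an unadjusted p under 0.05. Voom on the recovered reads called 288 members higher in H3K18La (10.1%, all peaks 25.6%) and 88 in H3K27Ac (3.1%, all peaks 20%).

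No member passed the test that its glucose response differed between marks. The limma interaction over the 10 libraries called 0 members and 0.0% of all peaks, with 167 members at an unadjusted p under 0.05 and a smallest adjusted p of 0.971. With a replicate block 149 members had an unadjusted p under 0.05, and none was called.

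**Figure D3:**
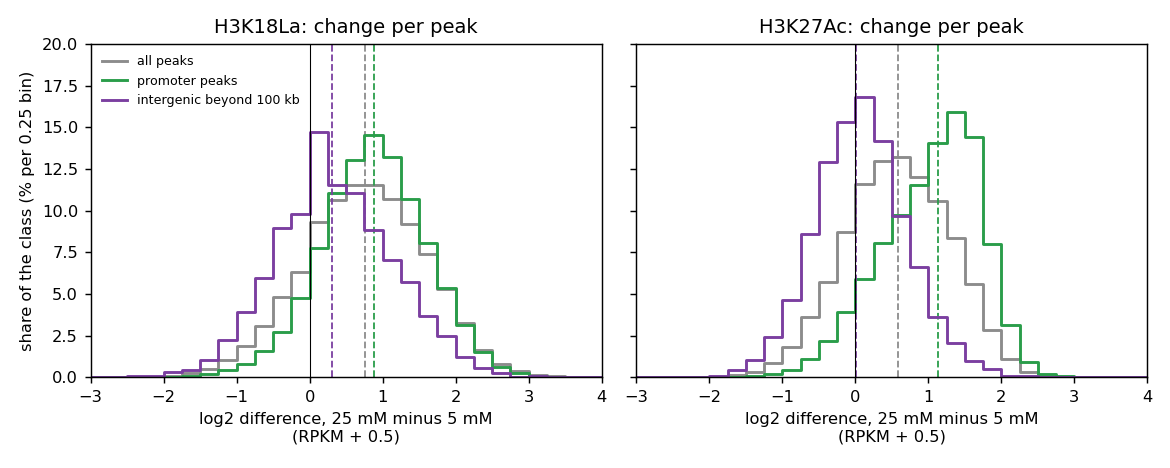
Distribution of the log2 difference in RPKM + 0.5, 25 mM minus 5 mM, for members, promoter peaks and all peaks, as the percent of each class per bin of 0.25. Dashed lines are medians. The median of members is 0.31 for H3K18La and 0.01 for H3K27Ac, to the left of all peaks (0.76 and 0.58) and of promoters (0.88 and 1.13).

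Calls were counted by the mean reads per library over both glucose levels, so a rise itself moves a member to a higher range, and the counts are a description. In H3K18La all 46 members with a mean of at least 30 reads were called higher, as were 99.4% of all such peaks. Of the 144 members with 10 to 30 reads, 68.1% were called (73.9% of all such peaks), and of the 1256 with under 1 read, 0.557% (0.677% of all such peaks). In H3K27Ac 29.5% of the 78 members with at least 30 reads were called, against 50.1% of all such peaks, and 10.4% of the 192 with 10 to 30 reads, against 14.2%. Those 46 members held 25.3% of the members' H3K18La reads, and the 78 held 39.9% of their H3K27Ac reads.

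At a given level of the other mark, the H3K18La difference at members was close to that of other intergenic peaks. With a mean H3K27Ac level under 0.5 RPKM, the median H3K18La log2 difference was 0.00 at 1506 members and 0.06 at intergenic peaks 20 to 100 kb away. From 0.5 to 1 RPKM it was 0.36 at 715 members and 0.47 at those peaks, from 1 to 2 RPKM 0.88 at 395 and 0.82, and from 2 to 4 RPKM 1.24 at 140 and 1.26. At 4 RPKM or more it was 1.77 at 85 members, 1.71 at those peaks and 1.09 at promoters. Members thus lay below the next class in 3 of 5 ranges and above it in 2. The median H3K27Ac difference was lower at members than in the 20 to 100 kb class in all 5 ranges of H3K18La. At 4 RPKM or more it was 0.73 at 170 members, 1.01 at those peaks and 1.51 at promoters. These medians are given without a test, since peaks of 1 library are not replicates.

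Members lay unevenly along the chromosomes. Joined where neighbours were at most 12.5 kb apart, they formed 1247 single members and 477 runs, of which 68 had 5 or more members and together held 601. Runs of 5 or more were 21.2% of members but held 59.6% of the members' H3K18La reads and 58.7% of their H3K27Ac reads. Their pooled H3K18La level was 1.75, 1.8 and 1.76 RPKM at 5 mM and 4.48, 5.20 and 5.39 at 25 mM, a ratio of means of 2.84. Single members had 0.529, 0.585 and 0.561 RPKM at 5 mM and 0.761, 0.821 and 0.821 at 25 mM, a ratio of 1.43. Both subsets were higher at 25 mM in every library. For H3K27Ac the ratio was 1.8 in runs of 5 or more and 1.18 at single members. H3K18La was called higher at 29.1% of members in such runs and at 1.84% of single ones, against 20.6% of all peaks. H3K27Ac was called higher at 5.32% and 1.28%, both below the 16.4% of all peaks. The run members were also wider, with a median of 739 bp against 520 bp. Whether runs and single members differ in their response was not tested.

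The longest run outside chromosome 18, whose members were counted but are not described one by one, held 47 members over chr15:74196015-74338082. The nearest coding gene, Adgrb1, encodes an adhesion receptor of the brain, and its start lay 178 to 319 kb from these members. Pooled H3K18La there was 3.19, 3.22 and 3.49 RPKM at 5 mM and 8.85, 11.1 and 11.4 at 25 mM. H3K27Ac was 2.06 and 2.87 RPKM at 5 mM and 4.87 and 4.28 at 25 mM. Groups did not overlap in either mark, and 36 of the 47 members were called higher in H3K18La (76.6%, all peaks 20.6%) and 6 in H3K27Ac (12.8%, all peaks 16.4%).

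A run of 33 members at chr12:16337433-16457778 began 132 kb from Lpin1, which encodes a phosphatidate phosphatase of lipid synthesis. Its H3K18La level was 2.44 ± 0.125 RPKM at 5 mM and 7.37 ± 1.31 at 25 mM (SD, n = 3), and 24 members (72.7%, all peaks 20.6%) were called higher, with 3 (9.09%, all peaks 16.4%) in H3K27Ac. A run of 26 members at chr1:124973873-125089239 was assigned to Dpp10, which encodes a partner of potassium channels, or to a noncoding neighbour, and its nearest coding start by the annotation used here was that of Actr3, 346 to 460 kb away. There H3K18La was 1.96 ± 0.166 and 5.23 ± 0.636 RPKM, with 12 members (46.2%, all peaks 20.6%) called higher and 2 (7.69%, all peaks 16.4%) in H3K27Ac. The H3K27Ac level of that run was 1.41 ± 0.518 and 1.92 ± 0.155 RPKM (SD, n = 2), so that its ratio of H3K27Ac to H3K18La at 25 mM, 0.366, was the lowest of the 14 runs of 9 or more members examined.

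The run of 19 members near Ajap1, a gene for a membrane protein of cell junctions, at chr4:153680917-153758991, had the opposite balance. H3K27Ac was 3.49 ± 1.05 RPKM at 5 mM and 8.20 ± 0.764 at 25 mM (SD, n = 2), against 2.08 ± 0.320 and 6.70 ± 0.627 for H3K18La (SD, n = 3). Its ratio of H3K27Ac to H3K18La at 25 mM, 1.22, was the highest of the 14 runs. The highest H3K18La level of these runs was at chr3:21425430-21502752, where 16 members lay 574 to 651 kb from Tbl1xr1, a gene for a subunit of a corepressor complex. It was 4.02, 3.74 and 3.32 RPKM at 5 mM and 11.8, 12.8 and 13.5 at 25 mM.

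Thrb, the thyroid hormone receptor beta that cone photoreceptors need for their opsin identity, was assigned 24 members, of which 18 formed a run at chr14:17405362-17487146, 174 to 254 kb from the coding start. Pooled H3K18La was 1.89, 2.01 and 2.15 RPKM at 5 mM and 4.43, 4.85 and 6.11 at 25 mM. H3K27Ac was 1.3 and 2.15 RPKM at 5 mM and 2.52 and 3.05 at 25 mM. Neither mark overlapped between groups, with 7 members called higher in H3K18La (38.9%, all peaks 20.6%) and 2 in H3K27Ac (11.1%, below the 16.4% of all peaks). A run of 9 members near Diras2, a small GTPase gene, at chr13:52392070-52426432, had 1.47 ± 0.244 RPKM of H3K18La at 5 mM and 4.90 ± 1.23 at 25 mM (SD, n = 3), with 5 members (55.6%, all peaks 20.6%) called higher. Runs near Sipa1l2, Cdh26 and Kcnd3, of 10, 9 and 9 members, had no member called higher in H3K18La (all peaks 20.6%). In H3K27Ac 0, 0 and 1 were called, the last being 11.1% of its run (all peaks 16.4%). The H3K18La levels of these runs at 25 mM were 1.72, 1.79 and 0.975 RPKM.

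**Figure D4:**
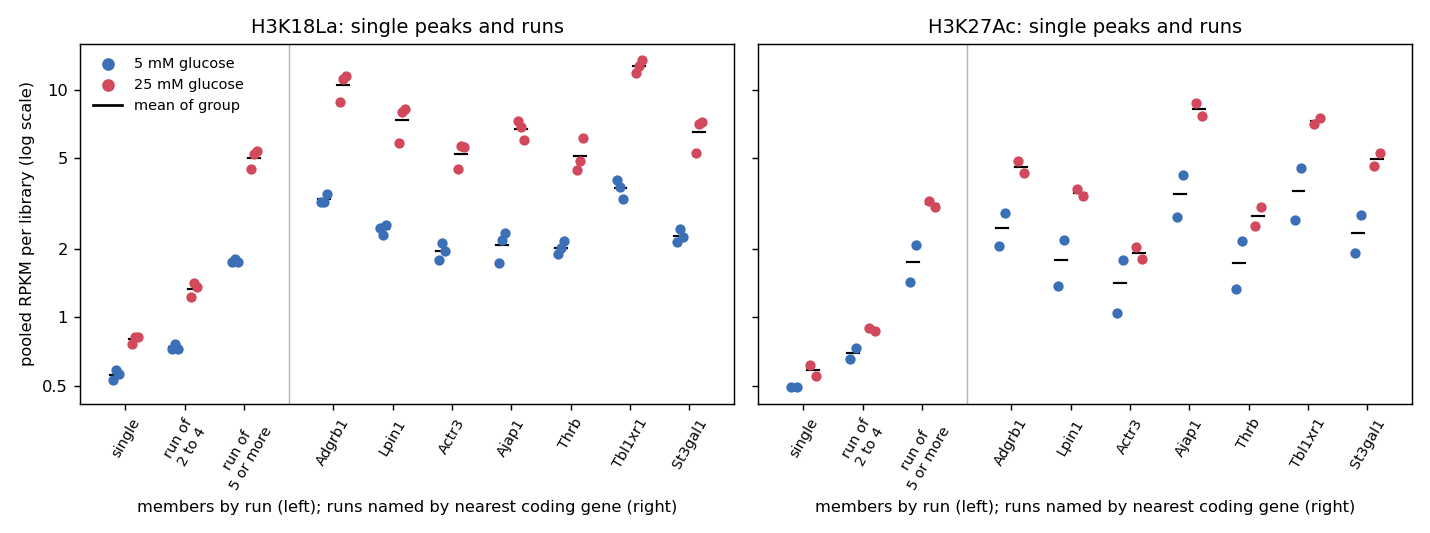
Pooled RPKM per library, on a log scale, of single members and of runs of 2 to 4 and 5 or more members (left of the line), and of 7 long runs named by their nearest coding gene (right). Points are libraries and black bars group means. Single members lie lowest in both marks, and the Ajap1 run has more H3K27Ac than the Adgrb1 run while its H3K18La is lower.

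The 5 largest rises in H3K18La, among members that averaged at least 10 reads over the libraries of the mark and whose groups did not overlap, all lay in these runs. Of these, 3 had fewer than 10 reads in each library at 5 mM and met that average through the libraries at 25 mM. The member assigned to Gm15387 at chr15:74215035-74215559 had 4.52, 2.57 and 1.40 RPKM at 5 mM and 25.2, 26.2 and 24.4 at 25 mM. Its log2 difference was 3.06 ± 0.32 (SE, limma adjusted p = 0.000182). All 3 libraries at 25 mM stood far above the others, and H3K27Ac at this member, with 3.08 and 4.29 RPKM at 5 mM and 11.9 and 8.72 at 25 mM, rose by 1.37 ± 0.42 (limma adjusted p = 0.0333). The interaction at this member was not called (limma adjusted p = 0.971).

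The Thrb member at chr14:17431418-17432240, whose sequence holds the CRX and OTX match, had 1.15, 1.88 and 0.895 RPKM of H3K18La at 5 mM and 9.27, 8.97 and 10.7 at 25 mM. The log2 difference was 2.52 ± 0.34 (limma adjusted p = 0.000329). H3K27Ac there was 1.97 and 2.93 RPKM at 5 mM and 7.77 and 9.00 at 25 mM, a difference of 1.61 ± 0.41 (limma adjusted p = 0.0187). Both marks were thus higher in every library at 25 mM. The strongest Thrb member, at chr14:17429166-17430182, passed in H3K18La alone. H3K18La rose there by 1.77 ± 0.30 (limma adjusted p = 0.00116), while H3K27Ac had 2.96 and 6.17 RPKM at 5 mM and 7.11 and 6.22 at 25 mM (limma adjusted p = 0.383).

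Gm43675, an unprocessed pseudogene, lent its name to another pair of these rises, at chr3:21496181-21496831 with 2.55 ± 0.43 and at chr3:21463517-21465047 with 2.26 ± 0.39 on the log2 scale (limma adjusted p = 0.00105 and 0.00128). The remaining member, assigned to Lpin1 at chr12:16428940-16429461, is 77.8% repeat. Its H3K18La was 7.27, 2.59 and 0 RPKM at 5 mM and 9.75, 11.3 and 11.6 at 25 mM. The spread at 5 mM was wide, on 8, 7 and 0 reads. The difference of 2.31 ± 0.69 (limma adjusted p = 0.0295) stayed called in 2 of 6 fits that left out a library. In those 6 fits it ran from 1.21 to 3.19. No fall in H3K18La met the same requirement on the mean.

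For H3K27Ac, 4 of the 5 largest rises had fewer than 10 reads in each library at 5 mM and met the mean through the libraries at 25 mM. The member assigned to Gm11835 at chr4:10079367-10080402, 236 kb from Gdf6, a growth factor gene active in eye development, had 0.670 and 0.777 RPKM at 5 mM and 4.16 and 4.68 at 25 mM. Its log2 difference was 2.01 ± 0.41 (limma adjusted p = 0.0126). Ppp1r2-ps7 on the X chromosome (chrX:22597296-22598571) had 1.27 and 2.90 RPKM, then 10.8 and 7.92, a difference of 1.99 ± 0.43 (limma adjusted p = 0.0135). H3K18La rose at this X-linked member as well, by 1.93 ± 0.39 (limma adjusted p = 0.00322). Gm12288 (chr11:63714045-63714663) rose by 1.98, Gm49674 (chr16:74756715-74757449), 346 kb from the axon guidance receptor gene Robo2, by 1.90, and Gm23056 (chr1:129040352-129041323) by 1.85, with limma adjusted p-values of 0.0135, 0.0169 and 0.0171. None of these H3K27Ac calls held when any 1 library was left out, since no call did.

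No member that met the same requirement was called lower in H3K27Ac, and the 3 such falls with the smallest unadjusted p did not pass. At the member assigned to Gm35722 (chr10:100882549-100883040) the 2 marks had opposite signs. H3K27Ac was 5.17 and 3.93 RPKM at 5 mM and 1.70 and 3.29 at 25 mM, a difference of -0.80 ± 0.42 (limma adjusted p = 0.192). H3K18La was 1.93, 5.88 and 2.99 RPKM at 5 mM and 8.27, 11.5 and 10.3 at 25 mM, a difference of 1.46 ± 0.35 (limma adjusted p = 0.00978). The interaction at this member was -2.26 with a limma adjusted p of 0.971. The other two, assigned to Gm831 and B020031H02Rik, had differences of -0.39 and -0.27 (limma adjusted p = 0.552 and 0.708).

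The strongest members were marked by both modifications. The member with the highest mean over the 10 libraries, 24.9 RPKM, lay at chr4:153693447-153694940 in the Ajap1 run and was assigned to Gm25880, a small nucleolar RNA. Its H3K18La was 9.20, 8.65 and 9.36 RPKM at 5 mM and 35.8, 32.4 and 22.6 at 25 mM, and its H3K27Ac was 14.4 and 19.7, then 53.5 and 43.8. The log2 differences were 1.66 ± 0.21 and 1.5 ± 0.48 (limma adjusted p = 0.000265 and 0.0395). Next came a member of the Tbl1xr1 run at chr3:21498465-21500565, assigned to Gm43675. It had 9.70, 10.7 and 11.2 RPKM of H3K18La at 5 mM and 39.0, 40.4 and 42.5 at 25 mM, the most uniform response of the 6 by standard error, 1.90 ± 0.17 (limma adjusted p = 0.000182). Its H3K27Ac, 6.38 and 10.0 RPKM then 16.3 and 17.4, differed by 1.02 ± 0.45 and did not pass (limma adjusted p = 0.114).

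A pair of neighbouring members lay 115 and 117 kb from the start of Mir205hg, the host transcript of a microRNA known from epithelia, at chr1:193625020-193626355 and chr1:193626903-193627378. H3K18La rose at them by 2.03 ± 0.25 and 1.73 ± 0.19 (limma adjusted p = 0.000238 and 0.000182), and H3K27Ac by 1.26 and 1.30 without passing (limma adjusted p = 0.061 and 0.0566). The member assigned to 1700012D14Rik at chr7:111242200-111244381 had 7.17, 6.46 and 7.76 RPKM of H3K18La at 5 mM and 25.2, 25.4 and 25.2 at 25 mM. It rose by 1.76 ± 0.20 in H3K18La and by 1.42 ± 0.48 in H3K27Ac (limma adjusted p = 0.000182 and 0.0459). The member assigned to Gm13481 at chr2:48567505-48568610, which holds an AP-1 match, rose by 1.58 ± 0.23 and 1.67 ± 0.47 (limma adjusted p = 0.000424 and 0.025). Every library at 25 mM exceeded every library at 5 mM in both marks at all 6 of the strongest members. These were picked by a mean that includes the libraries at 25 mM, which favours members that rise. The separation is therefore a description.

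Scaled to reads in peaks, none of the 10 largest rises passed the threshold, with differences from 0.89 to 1.75 on the log2 scale in their own mark and limma adjusted p-values from 0.31 to 0.693. Since these members were picked for their rises in the same values, the sign carries no weight. The H3K18La differences of the 6 strongest members were then 0.20 to 0.65, and under quantile normalization those of Gm25880 and Gm13481 turned to -0.05 and -0.12.

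**Figure D5:**
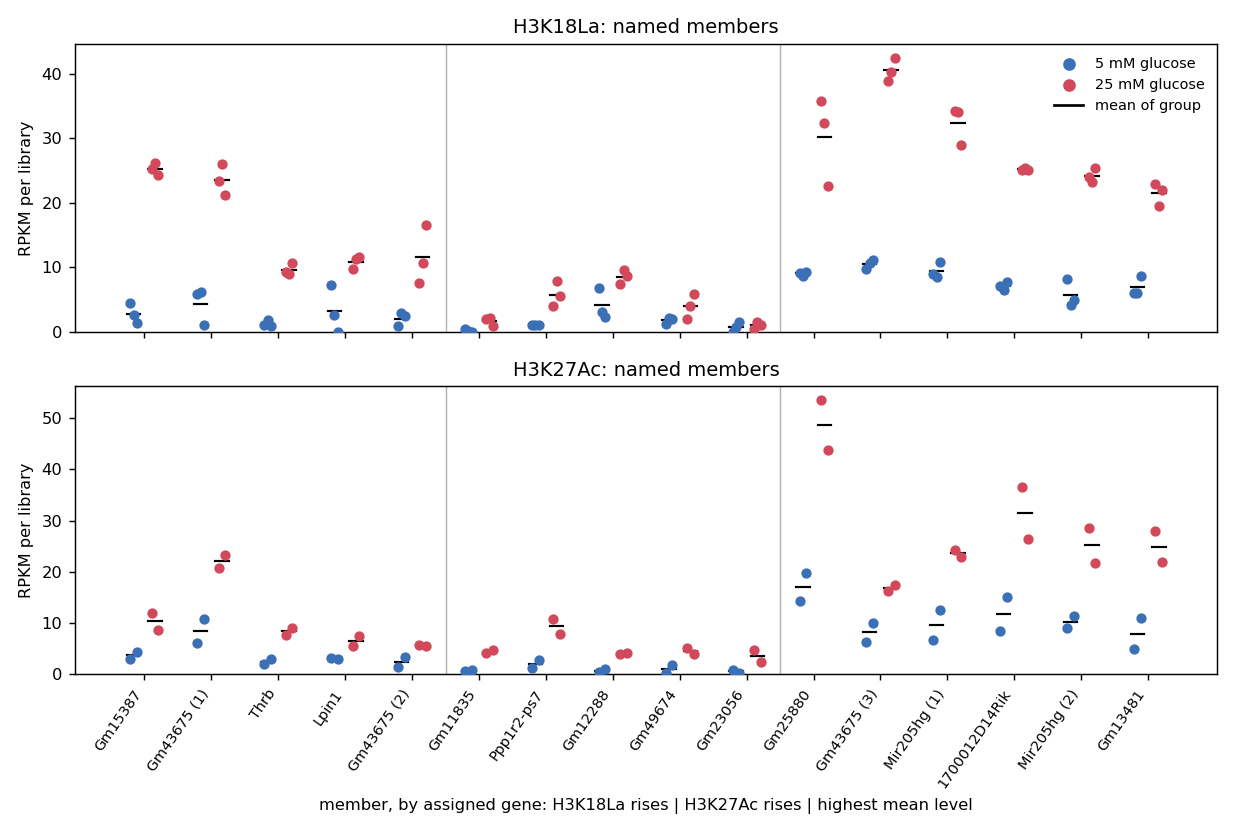
RPKM per library of H3K18La (top) and H3K27Ac (bottom) at the 5 largest rises of each mark and the 6 members with the highest mean level, named by assigned gene, with numbers in parentheses for repeated names. Points are libraries and black bars group means. At 25 mM the strongest members reach 42.5 RPKM of H3K18La and 53.5 of H3K27Ac.

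Members per assigned gene were most numerous at Gm15387 with 27, Gm20693 with 26, Thrb with 24, Cdh26 with 22 and AC119183.1 with 20, leaving out chromosome 18. Gm15387 and AC119183.1 share the Adgrb1 run. Their strongest members, at chr15:74221857-74223325 and chr15:74285559-74287021, rose in H3K18La by 1.81 ± 0.21 and 1.90 ± 0.25 (limma adjusted p = 0.000182 and 0.000264), and their H3K27Ac did not pass (limma adjusted p = 0.191 and 0.559). The strongest member of Gm20693 (chr2:101246582-101248108) rose in H3K18La by 1.22 ± 0.31 (limma adjusted p = 0.0134) and was -0.07 when scaled to reads in peaks. Near Cdh26, a cadherin gene, the strongest member (chr2:178622610-178623138) had 0.896, 4.38 and 4.18 RPKM of H3K18La at 5 mM and 2.89, 3.72 and 4.46 at 25 mM, with groups that overlapped (limma adjusted p = 0.612).

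Gene lists were read by the nearest protein-coding start, as the deposited assignment gave them 0 to 24 members. Of 42 genes of photoreceptor function, only Thrb had any, 28 in all, with 7 called higher in H3K18La (25.0%, all peaks 20.6%) and 3 in H3K27Ac (10.7%, all peaks 16.4%). Of 57 neural transcription factor genes, 20 had 104 members, of which 6 were called higher in H3K18La and 4 in H3K27Ac, 0 and 1 lower. Their median log2 difference was 0.49 in H3K18La, against 0.76 over all peaks. Of 70 genes of adhesion and axon guidance, 41 had 219 members, of which 5 were called higher and 1 lower in H3K18La, 3 higher and 2 lower in H3K27Ac, with medians of 0, where 0.117% and 0.179% of all peaks were called lower. Of 28 genes of glycolysis and lactate, only Pfkp and Slc16a7 had members, 8 in all, with 1 called higher in H3K18La and 0 in H3K27Ac. The shares called higher were below those of all peaks, except that of Thrb in H3K18La.

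Among neural transcription factors, the strongest member lay 171 kb from Sox9, a factor of Müller glia, at chr11:112952576-112954211. Its H3K18La was 0.290, 1.53 and 1.35 RPKM at 5 mM and 3.73, 4.51 and 4.74 at 25 mM, and its H3K27Ac was 1.27 and 1.77, then 6.29 and 4.03. Both rose, by 1.74 ± 0.46 and 1.47 ± 0.41 (limma adjusted p = 0.0156 and 0.0242). The H3K18La call held in 4 of 6 fits that left out a library and the H3K27Ac call in 0 of 4, and H3K18La at 5 mM rested on 1, 13 and 3 reads. A member 217 kb from Pou4f1, a ganglion cell factor, at chr14:104250523-104251060, rose by 1.91 in H3K18La and by 2.39 in H3K27Ac (limma adjusted p = 0.0386 and 0.0133), though its means at 5 mM rested on few reads and the H3K18La call held in 1 of 6 fits that left out a library. H3K18La alone passed at members near Meis2 and Tshz3, by 2.14 and 1.99 (limma adjusted p = 0.041 and 0.0236), on 0 to 6 reads per library, with overlapping groups near Meis2, and H3K27Ac alone at a member near Isl1, by 1.35 (limma adjusted p = 0.0321). The calls near Meis2 and Tshz3 held in 1 and 2 of 6 fits that left out a library, and voom called neither (adjusted p = 0.274 and 0.0563).

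Near Pfkp, which encodes a phosphofructokinase of glycolysis, a member at chr13:6791468-6792765, 143 kb from the coding start, had 2.19, 5.20 and 3.97 RPKM of H3K18La at 5 mM and 12.2, 16.1 and 17.1 at 25 mM. It rose by 1.92 ± 0.31 (limma adjusted p = 0.00086), while its H3K27Ac, 3.03 and 9.68 then 6.32 and 6.85 RPKM, overlapped between groups (limma adjusted p = 0.773). The strongest member near Slc16a7, a monocarboxylate transporter gene, averaged 0.32 RPKM and was at or under the floor. Near the adhesion receptor Adgrl2, the member at chr3:147968085-147968531 rose in H3K18La by 1.18 ± 0.25 (limma adjusted p = 0.00458), a difference that turned to -0.19 when scaled to reads in peaks. The strongest members near Epha4, Flrt2 and Cdh8 did not pass in either mark.

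Levels were lowest at the greatest distances. H3K18La at 25 mM was 2.54 ± 0.176 RPKM over the 984 members 100 to 125 kb from a TSS, 1.93 ± 0.189 over the 620 at 125 to 150 kb, 2.05 ± 0.206 over the 677 at 150 to 200 kb, 1.70 ± 0.114 over the 472 at 200 to 300 kb and 1.15 ± 0.118 over the 88 beyond 300 kb (SD, n = 3). H3K27Ac at 25 mM ran 1.72, 1.13, 1.31, 1.13 and 0.873 RPKM in the same order. Neighbouring bins from 125 to 200 kb did not differ beyond their spread in H3K18La. Calls of a rise in H3K18La ran from 10.5% at 150 to 200 kb to 3.41% beyond 300 kb, all below the 20.6% of all peaks. For H3K27Ac they ran from 3.05% at 100 to 125 kb to 0 of 88 beyond 300 kb, against 16.4%. The 3 farthest members, all on chromosome 1 more than 1 Mb from Cntnap5a, a neuronal adhesion gene, averaged 0.171 to 0.477 RPKM.

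Repeat-rich members had lower levels and smaller ratios. The 501 members with more than 50% repeat had 0.687 ± 0.0400 RPKM of H3K18La at 5 mM and 1.07 ± 0.163 at 25 mM (SD, n = 3), a ratio of 1.56, while the other 2340 had a ratio of 2.32. Their H3K27Ac was 0.573 ± 0.0271 and 0.567 ± 0.0137 RPKM (SD, n = 2), a ratio of 0.989 against 1.59. How reads that align to several places were counted is not given in the sources used here, so these values are uncertain. The 59 members on the X chromosome had ratios of 2.73 and 2.27, with 7 and 6 called higher in H3K18La and H3K27Ac (11.9% and 10.2%, below the 20.6% and 16.4% of all peaks).

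Peaks beside the limit of 100 kb were weak on both sides. The 3 members just inside it, at 100012, 100026 and 100043 bp, averaged 0.874, 0.0401 and 0.596 RPKM over the 10 libraries, and the 3 intergenic peaks just outside, at 99954, 99937 and 99930 bp from Sp4, Thsd7b and Cd47, averaged 0.843, 0.530 and 0.957 RPKM.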

How the data were processed

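Deposited RPKM values, made by the authors per library over 1 set of peaks, were used for all 10 libraries. Per the study's methods, reads were aligned to GRCm38 with the nf-core/cutandrun workflow, peaks were called with MACS in developing retina for H3K18La, regions on the ENCODE blacklist were removed, reads were counted with csaw and peaks were annotated with ChIPseeker 1.34.1. A peak therefore had to be present for H3K18La in uncultured retina. The methods also name a csaw normalization on large windows, and whether the deposited RPKM include it is not stated. The labels' extract protocol names an H3K9me3 antibody and pA-MNase, while the methods name H3K27Ac and pA-Tn5, and the library titles were followed. A second deposited table of the authors' own differential comparisons (edgeR 3.40.2) holds fold changes and p-values and was not used.

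Each RPKM value times the peak width was a whole multiple of 1 read in 100% of values (tolerance 0.01), which gave reads and the total behind RPKM, from 1358008 to 7424470 per library. Tests on peaks used limma 3.58.1 (R 4.3.3): log2(RPKM + 0.5), intensity trend, robust moderation, Benjamini-Hochberg over 108253 peaks and a threshold of 0.05. No filter on low values was set. Library-level values were compared by exact two-sided permutation. Simulated data made from these means tested the fit, with 100 peaks changed 4-fold and 100 changed 16-fold, at 20 reads or more. It found 32 and 100 for H3K18La and 5 and 88 for H3K27Ac, and called 0 unchanged peaks. In the same data voom called 15 unchanged peaks for H3K18La and 0 for H3K27Ac. The simulation changed few peaks, up and down alike, with a fixed spread and no shift over all peaks. The data had rises called at 20.6% and 16.4% of peaks and few falls, so these rates need not carry over. The nearest coding start is from GENCODE M21, in which 99.7% of shared transcripts had the deposited coordinates, and sequence is from RefSeq GRCm38.p6.

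Named members were, outside chromosome 18, the 5 largest rises and 3 largest falls per mark with a mean of at least 10 reads over the mark's libraries and groups that did not overlap (where under 3 falls passed, up to 3 with the smallest unadjusted p), the 6 with the highest mean, the strongest of the 5 genes with most members, up to 5 per gene list, the 3 farthest and 3 on each side of the limit. Members, lists and rules were chosen with earlier results of these data known. Runs, distance bins, repeat, motif and level subsets were chosen after seeing the files and are described without a test. Alternatives were other pseudocounts, filters, scalings, moderation, voom on recovered reads, a replicate block, a threshold of 0.01, and leaving out each library. Another took replicates 2 and 3 of H3K18La at 5 mM as 1 sample. Beside counting error alone, their differences had a chi-squared per degree of freedom of 1.04 over all peaks and 1.05 over members.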

Additional observations from a re-analysis of the deposited data

How the results depend on the processing

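All 12 comparisons between libraries (shares of reads and class contrasts) kept their direction under every alternative run, though with only peaks averaging 1 RPKM or more the H3K18La contrast with promoters shrank from -0.54 to -0.02, and none could pass the threshold at these library numbers. The counts of called members did not hold, and those over all peaks moved as well. With H3K18La, 245 members called higher and 14 lower became 43 and 20 when centred on the median, 0 and 0 when scaled to reads in peaks or quantile-normalized, and 108 and 3 at a threshold of 0.01. Lower calls became 3 when peaks averaging under 1 RPKM were dropped, and 6 with the replicate block. Leaving out 1 library gave 110 to 219 higher and 3 to 12 lower, of 12086 to 21111 and 43 to 131 among all peaks. When centred on the median, all peaks had 5195 higher and 239 lower, instead of 22347 and 127. Taking replicates 2 and 3 at 5 mM as 1 sample gave 229 members higher and 14 lower, of 21380 and 133 among all peaks. At that setting 2 H3K18La calls at named members were lost. With H3K27Ac, 71 higher and 13 lower became 12 and 20 when centred on the median, 108 and 3 with the filter, and 0 and 0 with plain moderation, pseudocount 0.1, quantile normalization, scaling to reads in peaks, a threshold of 0.01 or any 1 library left out. In those of these fits that kept all libraries, unadjusted p was under 0.05 at 188 to 354 members. In the simulation plain moderation found 0 of 100 peaks changed 16-fold for H3K27Ac, so its 0 carries no weight. Over all peaks, H3K27Ac calls became 5137 higher and 396 lower when centred and 25036 and 119 with the filter, instead of 17794 and 194.

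With the replicate block, higher calls were 196 in H3K18La and 52 in H3K27Ac, of 18411 and 8356 among all peaks, and lower calls 6 and 7, of 60 and 162. The labels do not say whether same-numbered libraries share a source, and their deviations from the group means correlated by 0.0132 to 0.0288. The best match had the same number for H3K18La replicates 1 and 3 and both H3K27Ac replicates, but not for H3K18La replicate 2. With so few reads per peak, these values cannot decide whether libraries were paired. Some differences at named members changed sign, 3 of them under both scalings. Quantile normalization gave -0.0237 for Gm43675 in H3K27Ac, -0.33 for Gm12288 in H3K18La, -0.0462 and -0.0904 for Gm25880 in H3K18La and H3K27Ac, -0.0835 for 1700012D14Rik in H3K27Ac, and -0.12, -0.0515 and -0.43 for Gm13481, Gm20693 and Gm43574 in H3K18La. Scaling to reads in peaks gave -0.24, -0.0712 and -0.19 for Gm12288, Gm20693 and Gm43574 in H3K18La. Apart from the scalings' own construction, the cause was not tested. The median for a single member was 0 to 2 reads, and recovery in the simulation was measured only at 20 reads or more. The effect of depth on the calls at members was thus not tested.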
